A study of Homo sapiens with 8 samples.

Results

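The clustered replication-dependent histone genes were taken as the genes whose current symbol is H1-1 to H1-6 or begins with H2AC, H2BC, H3C or H4C plus a number. A RefSeq gene table (assembly GRCh38.p14) listed 82 of them, pseudogenes included. The array carried 77 probes for 66 of them, and 65 entered the test among 28850 genes in all, 6 of class H1, 16 of H2A, 17 of H2B, 12 of H3 and 14 of H4. Of the 16 genes with no probe, 12 were pseudogenes and 4 (H2AC11, H2AC18, H3C14 and H4C14) code for protein. The remaining gene, H2BC1, which encodes a testis histone, had a mean signal under 3 on the log2 scale, the detection limit of the methods. The 65 tested genes include 1 pseudogene, H2AC2P.

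The cells were LNCaP, a line of human prostate cancer cells grown from a metastasis, and received 30 nM of an siRNA against GATA2, a zinc finger transcription factor of the prostate lineage, or a scrambled siRNA (siControl). Total RNA was taken after 72 h and labelled with Cy3, and each of the 8 RNA samples was hybridised to a 1-colour Agilent array, 4 per group. The model is limited to 1 cell line and 1 siRNA product per group, and the labels do not say whether the 4 samples of a group came from separate cultures, so that p-values measure the spread between these samples only. The question asked of the histone genes was whether their RNA differed between the groups as a block or class by class.

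Replication-dependent histone genes lie in clusters and mostly lack introns. Their transcripts are made in S phase, when new DNA has to be packed into nucleosomes, and most end in a conserved stem-loop that SLBP binds rather than in a poly(A) tail. The core histones H2A, H2B, H3 and H4 build the nucleosome and H1 binds the linker DNA between nucleosomes. In dividing cells the set is known to rise and fall with DNA synthesis. Labelling kits of the kind used here prime cDNA from poly(A) tails, so that a histone signal on such an array may weight polyadenylated histone transcripts. The share of such transcripts was not measured.

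A single slide and scan (1 of each) held all 8 arrays. Between 24241 and 36968 probes were well above background per array, the fewest on siControl arrays 3 and 1, whose negative controls spread by 7.26 and 4.49 intensity units (SD) against 1.78 to 2.40 elsewhere. No spot was saturated. Of 7 LNCaP markers, 7 were well above background on all arrays. Of 5 markers of other cells, PTPRC and COL1A1 were well above background on all arrays, PECAM1 on 1 and TP63 on 3 of 8, and KRT5 did not enter the test. PTPRC was higher in the siGATA2 group (log2 fold change 0.87, standard error 0.123, adjusted p = 0.00138 from limma), and its part in the histone values was not tested. GATA2 itself did not check the labels, as its signal ran from 11.40 to 12.61 on the arrays labelled siGATA2 and from 11.10 to 11.74 on those labelled siControl, with a log2 fold change of 0.68 (SE 0.312, limma adjusted p = 0.154, p = 0.143 in an exact two-sided permutation test). Every direction below therefore compares arrays labelled siGATA2 with arrays labelled siControl.

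The histone genes did not move as a block. After quantile normalization, 12 of 65 were lower in the siGATA2 group and 19 were higher, and 34 were not called (limma, adjusted p under 0.05 over all genes). Among all genes tested 14.2% were called lower and 12.3% higher, against 18.5% and 29.2% of the histone genes, so that the lower share lay near that of all genes. At least a 2-fold difference was reached by 9 histone genes called lower and 8 called higher, against 7.13% and 4.52% of all genes. The median log2 fold change of the histone genes was 0.38 and that of all genes 0.09. The higher calls varied with the scaling. With scaling to the 75th percentile 12 histone genes were called lower and 15 higher, 13 of them among the 19. In that setting 13.2% of all genes were called lower and 14.1% higher. With scaling to 7 E1A spike-in probes, which moved the median of all genes to -0.43, the histone median was -0.23, and 10 genes were called lower and 2 (H1-6 and H2BC21) higher, while calls over all genes went down to 6.59% lower and 0.489% higher. Of the 19 genes called higher after quantile normalization, 12 kept a positive value with spike-in scaling. The E1A signal was itself low on siControl array 1 (11.13 on the log2 scale, against 13.45 to 13.83 elsewhere). Relative to the median of all genes, the histone median was 0.30 higher after quantile normalization and 0.20 higher after spike-in scaling.

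**Figure D1:**
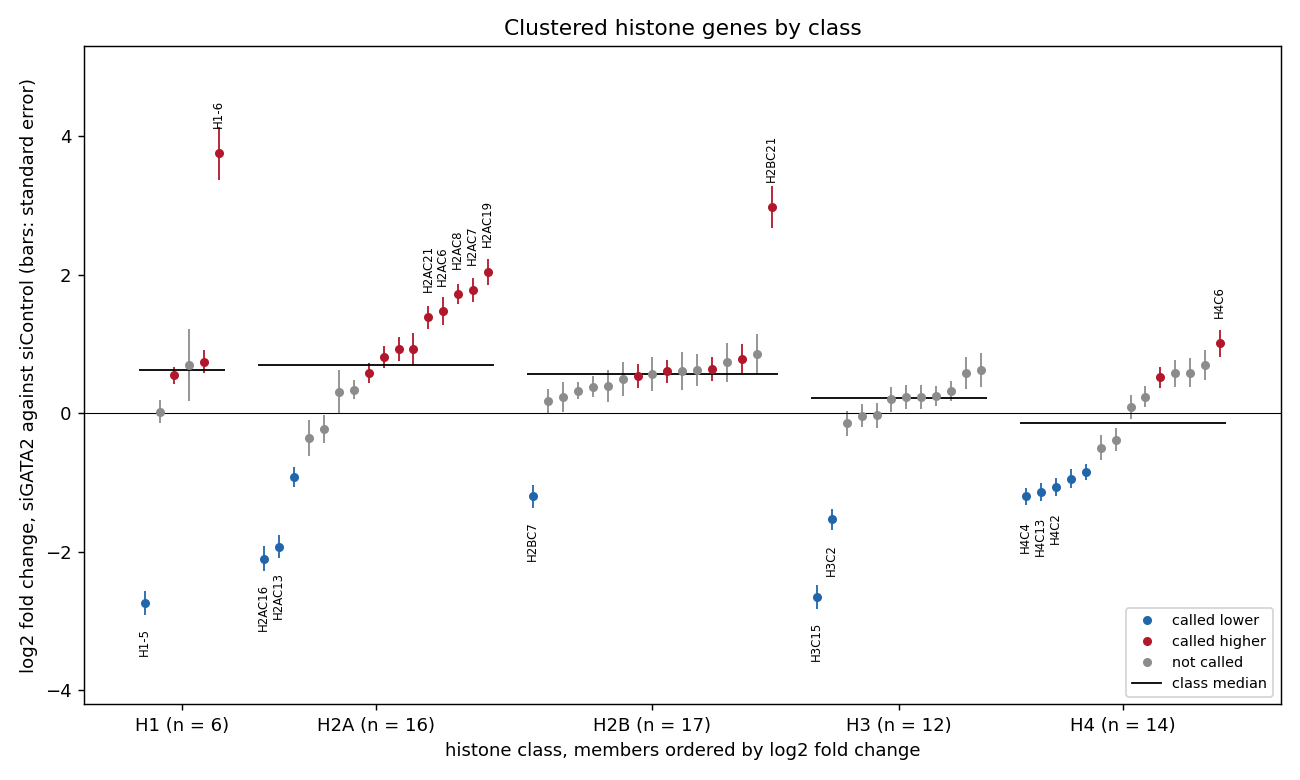
Log2 fold change of each tested histone gene, siGATA2 against siControl, by histone class, with bars for the standard error, colours for the limma call and a black line for the class median. Members reaching 2-fold carry their symbol. H1, H2A and H2B medians lie at 0.62, 0.70 and 0.57, H3 at 0.21 and H4 at -0.15, and every class holds at least 1 gene called lower.

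By class, higher calls were made for 9 of 16 H2A, 3 of 6 H1, 5 of 17 H2B and 2 of 14 H4 genes and for 0 of 12 H3 genes by limma, where 2 had a positive change at an unadjusted p under 0.05 and the methods' t-test called 0 higher. Lower calls were made for 5 of 14 H4, 3 of 16 H2A, 2 of 12 H3, 1 of 6 H1 and 1 of 17 H2B genes. Among all genes tested 12.3% were called higher and 14.2% lower. Near these lay the share of H4 genes called higher (14.3%) and those of H1, H3 and H2A genes called lower (16.7%, 16.7% and 18.8%). The class medians were 0.62 for H1, 0.70 for H2A, 0.57 for H2B, 0.21 for H3 and -0.15 for H4, and differences between classes were not tested. With spike-in scaling the higher calls fell to 1 in H1, 0 in H2A, 1 in H2B and 0 in H4, against 0.489% of all genes. By genomic cluster, the large cluster on chromosome 6 (HIST1) gave 10 lower and 15 higher calls among 54 genes, and the cluster on chromosome 1 known as HIST2 gave 2 and 4 among 8. Neither of the 2 HIST3 genes nor the lone HIST4 gene H4C16 was called. The groups did not overlap in 13 histone genes with lower and 27 with higher signal, against 16.5% and 16.2% of all genes.

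The linker histones included a large fall and a large rise. H1-5, a somatic H1, had log2 signals of 7.54, 7.06, 7.31 and 7.74 on siGATA2 arrays 1 to 4 and 9.98, 10.07, 10.43 and 10.12 on siControl arrays 1 to 4. All 4 siGATA2 values lay below all siControl values. H1-5 fell by 2.74 on the log2 scale (SE 0.174, limma adjusted p = 3.47e-05), a 6.68-fold difference. H1-6, which encodes the testis linker histone H1t, stood at 8.21, 8.24, 7.75 and 7.66 in the siGATA2 group and at 4.38, 4.32, 3.12 and 5.03 in the siControl group. The groups did not overlap, and the probe was well above background on 4 siGATA2 but only on 2 siControl arrays. Its log2 fold change was 3.75 (SE 0.381, limma adjusted p = 0.000265), and 1.82 after normexp background correction, whose offset shrinks the fold of dim probes.

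The other somatic linker histones moved less. H1-2 read 15.52, 15.48, 15.98 and 16.11 against siControl values of 14.99 to 15.14, a log2 fold change of 0.74 (SE 0.166, limma adjusted p = 0.0128). H1-3 read 11.71, 11.70, 12.05 and 12.10 against 11.36, 11.35, 11.38 and 11.29, a log2 fold change of 0.55 (SE 0.126, limma adjusted p = 0.0143). Neither gene's groups overlapped, yet with spike-in scaling the 2 log2 fold changes were -0.01 and -0.07, and without siControl arrays 1 and 3 only 1 H1 gene was called higher. H1-4 was not called, with 12.68, 12.59, 13.13 and 13.23 around the siControl values of 12.84 to 12.93, and its log2 fold change of 0.02 changed sign in several settings. H1-1 was dim, with 4.32 to 4.71 against 4.41, 4.38, 2.06 and 4.34, and only 2 of 4 siControl arrays measured it well above background.

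The promoters of H1-5 and H1-6, which moved in opposite directions, are given here as they hold the same class element. The windows run from 250 bases before to 50 bases after the annotated start (RefSeq, GRCh38.p14, minus strand, chr6:27867539-27867838 for H1-5 and chr6:26108086-26108385 for H1-6), and capitals mark the CCAAT box (CCAAT), the H1 box (AAACACA), the TATA box (TATAAA) and the octamer (ATTTGCAT) on either strand.
H1-5: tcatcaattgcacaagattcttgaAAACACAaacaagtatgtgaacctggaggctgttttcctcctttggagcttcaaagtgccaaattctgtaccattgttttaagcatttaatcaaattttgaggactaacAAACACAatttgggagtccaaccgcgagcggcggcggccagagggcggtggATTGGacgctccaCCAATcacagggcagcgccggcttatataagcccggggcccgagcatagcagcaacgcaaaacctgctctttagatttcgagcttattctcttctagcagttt
H1-6: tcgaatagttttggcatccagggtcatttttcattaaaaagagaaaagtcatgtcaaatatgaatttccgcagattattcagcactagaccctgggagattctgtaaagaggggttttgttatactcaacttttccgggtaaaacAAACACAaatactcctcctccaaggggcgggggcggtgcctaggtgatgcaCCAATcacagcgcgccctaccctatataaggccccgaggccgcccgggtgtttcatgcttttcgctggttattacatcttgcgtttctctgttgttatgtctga
Both hold the H1 box upstream of the CCAAT box. The H1 box was found in the windows of 6 of 6 H1 genes, of 8 of 59 histone genes with a window in all and of 6.94% of 27305 genes in the RefSeq table, any window of a gene counting. The element was thus shared by H1 genes called lower, higher and not called.

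The H2A class held 5 of the 8 histone genes called higher by at least 2-fold. H2AC19, in HIST2, read 14.23, 14.39, 14.96 and 14.95 on siGATA2 arrays 1 to 4 and 12.53, 12.71, 12.57 and 12.58 on the siControl arrays. H2AC7 read 16.17, 16.31, 16.84 and 16.81 against 14.73, 14.84, 14.69 and 14.75. In both genes the siGATA2 values lay above all siControl values, with arrays 3 and 4 above arrays 1 and 2. The log2 fold changes were 2.03 for H2AC19 (SE 0.188, limma adjusted p = 0.000169) and 1.78 for H2AC7 (SE 0.174, adjusted p = 0.000219). H2AC8, H2AC6 and H2AC21 were also called higher by at least 2-fold, with log2 fold changes of 1.72, 1.48 and 1.38, and H2AC1, H2AC17, H2AC15 and H2AC12 by 0.93, 0.93, 0.81 and 0.58. With spike-in scaling the log2 fold changes of H2AC19 and H2AC7 were 1.36 and 1.00, and neither passed the test (adjusted p = 0.112 and 0.285 from limma).

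In the same class, H2AC16 fell, from 8.48, 8.73, 8.95 and 8.78 on the siControl arrays to 6.41, 6.37, 7.02 and 6.73, a log2 fold change of -2.10 (SE 0.178, limma adjusted p = 0.000113). H2AC13 fell too, from 9.95, 10.25, 10.48 and 10.22 to 8.23, 7.96, 8.46 and 8.55, a log2 fold change of -1.92 (SE 0.170, limma adjusted p = 0.000140). Neither gene's groups overlapped. The third, H2AC20, fell by 0.92 on the log2 scale, and its log2 fold change was -1.58 with spike-in scaling, where the standard error was 0.50 and the limma adjusted p = 0.0606. H2AC25, H2AC4, H2AC14 and the pseudogene H2AC2P were not called, with log2 fold changes of -0.36, -0.23, 0.34 and 0.31.

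Among the H2B genes, H2BC21 stood apart from a class that otherwise moved little. Its signal was 12.45, 12.57, 13.47 and 13.36 on siGATA2 arrays 1 to 4 and 9.50, 10.32, 9.86 and 10.28 on siControl arrays 1 to 4, with no overlap. The log2 fold change was 2.98 (SE 0.296, limma adjusted p = 0.000241), a 7.87-fold difference. A dimmer probe of H2BC21 gave 0.62 and was not called (limma adjusted p = 0.128 over all probes). H2BC7 was the H2B gene called lower, at 8.03, 7.84, 8.48 and 8.33 against 9.26, 9.21, 9.62 and 9.38. Its groups did not overlap and its log2 fold change was -1.20 (SE 0.171, limma adjusted p = 0.00144). The log2 fold changes of the other 15 H2B genes ran from 0.18 to 0.85, and 4 of them (H2BC11, H2BC17, H2BC9 and H2BC13) were called higher. Those calls rested on the setting, as the number of H2B genes called higher was 1 with spike-in scaling, with the slide row as a block or without siControl arrays 1 and 3, and 12 with the title letter as a random block. Of all genes 0.489%, 7.57%, 9.49% and 18.5% were called higher in these settings, in that order. The median of the H2B genes was low on siControl array 1, at -0.32 from the siControl mean of each gene, against 0.09 to 0.14 on the other siControl arrays.

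Of the H3 genes, which as proteins are nearly identical, 2 were called lower and none higher. H3C15 read 10.54, 10.37, 10.25 and 10.46 on the siGATA2 arrays against 13.39, 12.68, 13.29 and 12.88. H3C2 read 11.74, 11.77, 11.85 and 11.98 against 13.52, 13.02, 13.62 and 13.31. The groups were far apart in both genes, and the log2 fold changes were -2.65 for H3C15 (SE 0.177, limma adjusted p = 4.16e-05) and -1.53 for H3C2 (SE 0.149, adjusted p = 0.000219). The other 10 H3 genes were not called. Their log2 fold changes ran from -0.15 for H3C10 to 0.58 for H3C11 and 0.63 for H3C3. Once siGATA2 arrays 1 and 2 were left out, 7 H3 genes were called higher, against 13.8% of all genes.

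H4 genes supplied the most lower calls of any class. H4C3 read 16.99, 16.80, 16.64 and 16.69 on siGATA2 arrays 1 to 4 and 17.65, 17.53, 17.73 and 17.61 on the siControl arrays. H4C4 read 12.79, 12.61, 12.47 and 12.57 against 13.99, 13.62, 13.89 and 13.75. Neither gene's groups overlapped, and the log2 fold changes were -0.85 for H4C3 (SE 0.112, limma adjusted p = 0.000972) and -1.20 for H4C4 (SE 0.123, adjusted p = 0.000282). H4C13, H4C2 and H4C5 fell by 1.13, 1.06 and 0.95 on the log2 scale, and with spike-in scaling the log2 fold change of H4C5 was -1.58, with a standard error of 0.493 and a limma adjusted p = 0.0569. H4C6 was higher, at 11.37, 11.47, 12.09 and 12.13 against 10.81, 10.66, 10.87 and 10.68, a log2 fold change of 1.01 (SE 0.198, limma adjusted p = 0.00701) that was 0.41 with spike-in scaling (adjusted p = 0.740). H4C15 was called higher by 0.52, and H4C8 missed the threshold at 0.69 (limma adjusted p = 0.0525).

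**Figure D2:**
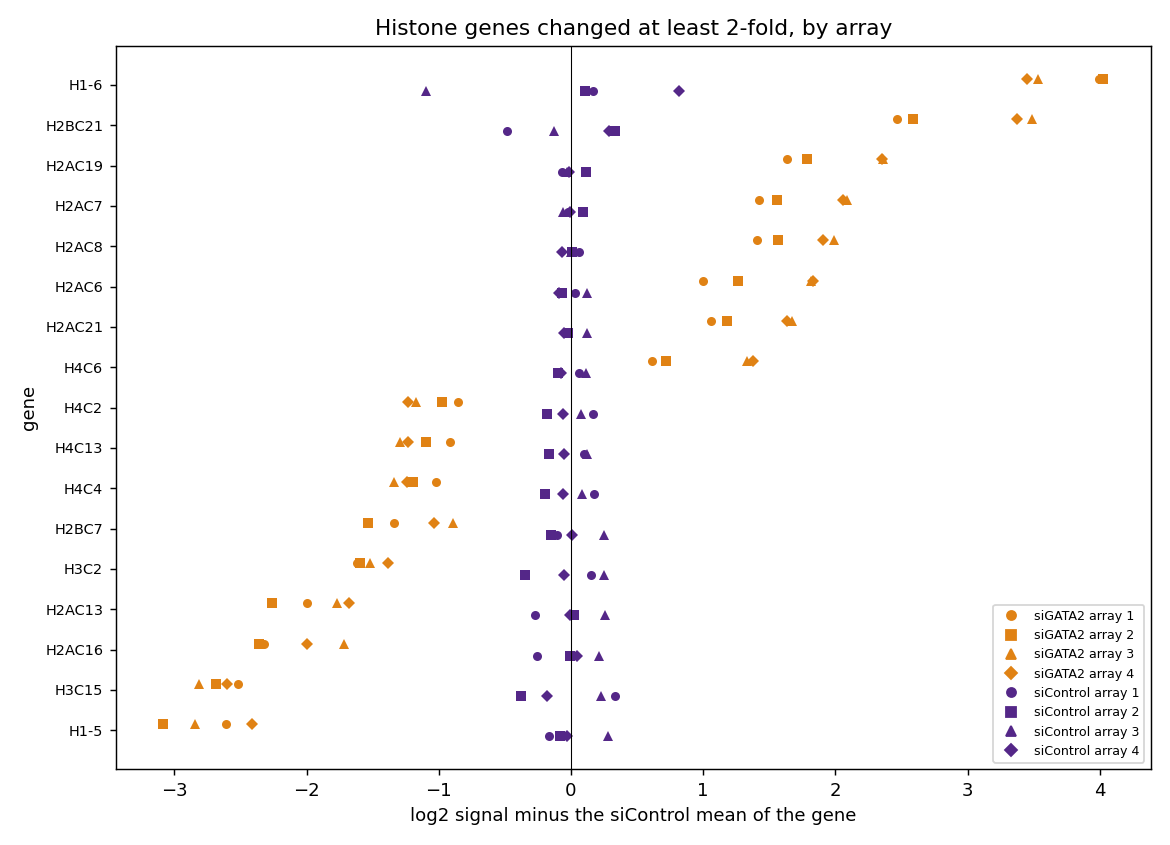
Log2 signal of each of the 17 histone genes called with at least a 2-fold difference, minus the siControl mean of the gene, on each of the 8 arrays (orange for siGATA2, purple for siControl, 1 marker shape per array number). No gene's groups overlap, and in the genes called higher other than H1-6 the triangles and diamonds of siGATA2 arrays 3 and 4 lie to the right of arrays 1 and 2.

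The 4 siGATA2 arrays were not alike. In 57 of 65 histone genes (87.7%) arrays 3 and 4 both lay above arrays 1 and 2, and in 6 both lay below, against 46.0% and 33.3% of all genes. Arrays 3 and 4 lay above in 16 of 16 H2A, 16 of 17 H2B, 11 of 12 H3, 10 of 14 H4 and 4 of 6 H1 genes. The median H2A deviation from the siControl mean of each gene was 0.44, 0.45, 0.95 and 1.13 on siGATA2 arrays 1 to 4, and the median H3 deviation was -0.13, -0.07, 0.46 and 0.47. The genes called higher followed this order in 18 of 19 cases and the genes called lower in 6 of 12, with 4 of the 12 in the opposite order. GATA2 itself was higher on siGATA2 arrays 1 and 2 (12.61 and 12.54) than on arrays 3 and 4 (11.57 and 11.40), and its part in the histone values was not tested. Without arrays 1 and 2, 36 histone genes were called higher and 12 lower, against 13.8% and 12.9% of all genes. Without arrays 3 and 4, 14 were called higher and 15 lower, against 15.5% and 17.4% of all genes.

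The arrays were not balanced over the slide. Row 1 of the slide held siGATA2 arrays 1, 2 and 3 and siControl array 4, and row 2 the others. The median histone difference was 0.24 in row 1 and 0.68 in row 2. Letters B and F of the sample titles each held 1 array of each group, with median differences of 0.19 and 0.60. With the slide row as a block 12 histone genes were called lower and 13 higher, against 10.4% and 7.57% of all genes.

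Many H2A and H2B genes lie head to head and share the stretch between their starts. Of 11 such pairs, with starts under 500 bases apart on opposite strands, both genes were tested in 9. In 3 pairs the genes were called in opposite directions. H2AC7 rose by 1.78 while its neighbour H2BC7 fell by 1.20 on the log2 scale. H2AC20 fell by 0.92 beside H2BC21, which rose by 2.98 with its brightest probe (0.62 with the other, not called). H2AC13 fell by 1.92 beside H2BC13, which rose by 0.54 after quantile normalization and had a log2 fold change of -0.15 with spike-in scaling. The H2A change minus the H2B change was 2.98, -3.90 and -2.46 in these pairs. Such a difference within a pair does not depend on a constant factor per array. In these 3 pairs its groups could not overlap, given the opposite calls, so that a test had a fixed outcome and its p is not given. In the other pairs it was compared between the groups with an exact two-sided permutation test, whose smallest p with 4 arrays against 4 is 0.0286. Adjusted over the 9 pairs that is 0.0367, a value that the 3 fixed pairs in it make smaller. The p-values given are therefore unadjusted, and no pair is called on them. The pairs that reached 0.0286 were H2AC25/H2BC26 (-1.21), H2AC8/H2BC8 (1.11), H2AC6/H2BC4 (0.74) and H2AC15/H2BC15 (0.49). In 2 pairs no difference was detected, H2AC17/H2BC17 with 0.29 (unadjusted p = 0.143 in the exact permutation test) and H2AC14/H2BC14 with -0.16 (unadjusted p = 0.686 in the same test). The spread of the difference within groups was 0.171 and 0.335 (SD) in these last pairs. H2AC17 and H2AC6 entered with their brightest probes, at 0.93 and 1.48. Their other probes stood at -0.34 and 1.09, and pair differences with those probes were not computed.

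**Figure D3:**
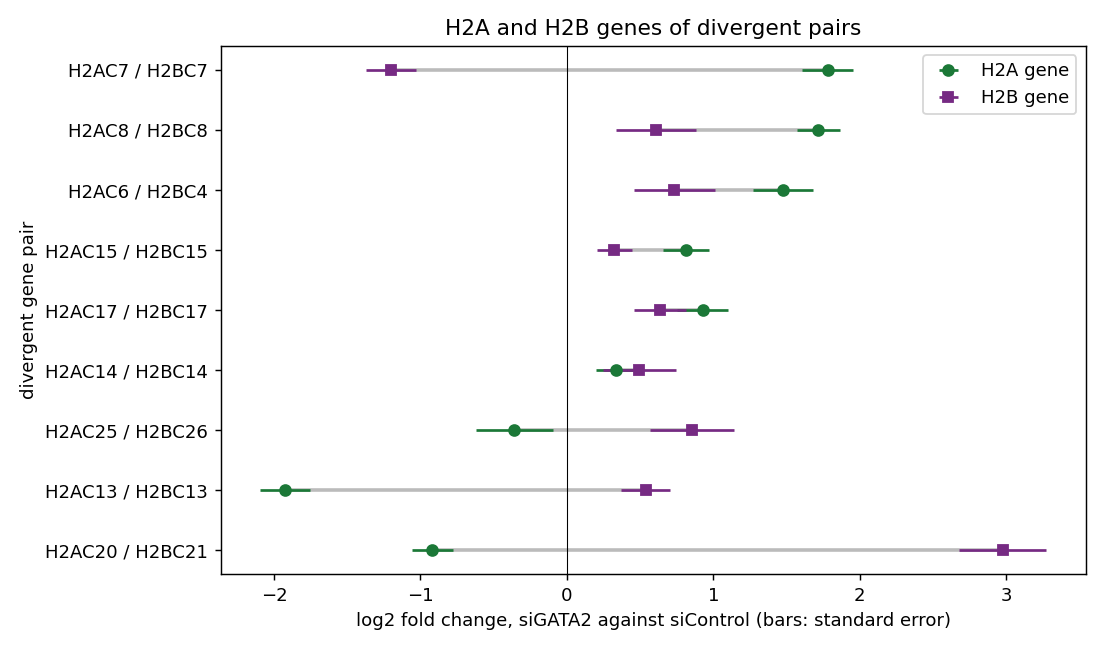
Log2 fold change of the H2A gene (green circles) and the H2B gene (purple squares) of each head-to-head pair with both genes tested, siGATA2 against siControl, with bars for the standard error. In the pairs H2AC7/H2BC7, H2AC13/H2BC13 and H2AC20/H2BC21 the genes lie on opposite sides of 0, at 1.78 and -1.20, -1.92 and 0.54, and -0.92 and 2.98.

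The windows of H2AC7 and H2BC21 are given because each belongs to a pair whose genes moved apart and because both hold the octamer of H2A and H2B promoters (RefSeq, GRCh38.p14, minus strand, chr6:26199244-26199543 for H2AC7 and chr1:149886633-149886932 for H2BC21, capitals as above).
H2AC7: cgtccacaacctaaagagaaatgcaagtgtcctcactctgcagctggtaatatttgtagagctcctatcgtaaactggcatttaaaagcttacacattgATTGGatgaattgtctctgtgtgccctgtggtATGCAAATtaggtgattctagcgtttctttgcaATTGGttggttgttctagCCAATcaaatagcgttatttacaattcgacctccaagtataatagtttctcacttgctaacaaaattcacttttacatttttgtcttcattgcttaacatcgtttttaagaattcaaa
H2BC21: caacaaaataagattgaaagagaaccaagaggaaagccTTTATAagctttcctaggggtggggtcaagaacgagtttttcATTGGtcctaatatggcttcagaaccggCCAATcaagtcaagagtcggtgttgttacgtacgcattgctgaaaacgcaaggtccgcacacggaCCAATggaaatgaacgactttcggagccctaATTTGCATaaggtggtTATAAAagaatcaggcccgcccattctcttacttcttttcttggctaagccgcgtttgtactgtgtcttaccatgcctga
The octamer, like the other motifs searched on both strands, was found in 10 of 14 H2A and 13 of 17 H2B genes with a window, in 1 of 10 H3 genes and in 0 of 6 H1 and 0 of 12 H4 genes, against 2.19% of all genes. Windows of paired genes overlap, so that 1 octamer can count for both. In the third pair with opposite calls, H2AC13/H2BC13, neither window held the octamer. The CCAAT box was found for all H1, H2A, H2B and H3 genes with a window (6, 14, 17 and 10) and for 3 of 12 H4 genes, against 39.7% of all genes, and the TATA box for 39 of 59 histone genes against 14.0%. The letters AGATAA, a site that GATA factors can bind, were found for 5 of 59 histone genes and for 12.4% of all genes. An H4 window without a CCAAT box, that of H4C4 (chr6:26189063-26189362, minus strand), is given for comparison, with the TATA box in capitals.
H4C4: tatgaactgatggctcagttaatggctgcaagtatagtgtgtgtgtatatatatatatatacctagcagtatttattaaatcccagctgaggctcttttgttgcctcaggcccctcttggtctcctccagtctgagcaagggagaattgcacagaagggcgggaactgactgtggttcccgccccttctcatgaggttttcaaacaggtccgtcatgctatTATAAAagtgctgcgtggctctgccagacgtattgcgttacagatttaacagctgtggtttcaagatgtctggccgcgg

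Different probes of a gene did not always move together, and in some genes this touched the calls. For 10 histone genes the array held more than 1 probe, which gave 11 comparisons with the brightest probe. H4C4 fell by 1.20 with its brightest probe, while its other probe read 11.16 to 11.47 on the siGATA2 arrays against 10.68 to 11.03 on the siControl arrays, a log2 fold change of 0.44 (limma adjusted p = 0.0379 over all probes). H4C13 showed the same split, at -1.13 and 0.46. H2AC17 was called higher at 0.93 with its brightest probe and stood at -0.34 with the other, and H3C10 stood at -0.15 and 0.50. For H2BC21 both probes had positive values, of 2.98 and 0.62. The probe at 0.62 was not called (limma adjusted p = 0.128 over all probes), and its groups overlapped. Some genes that were not called had another probe that passed the test, H2BC18 with probes at 1.37 (limma adjusted p = 0.00106) and 0.82 (limma adjusted p = 0.0303) beside 0.38 for its brightest, and H4C1 with a probe at -1.04 (limma adjusted p = 0.00196) beside -0.38. In H4C4, H4C13 and H2AC17 the groups lay apart in opposite directions with both probes. The difference between those probes could therefore not overlap, and its p is not given. Of the other comparisons, those of H3C10, H2BC21, H2BC12 and the H2BC18 probe at 1.37 gave p = 0.0286, the smallest an exact two-sided permutation test allows here. Adjusted over the 11 that is 0.0449, a value that the fixed comparisons in it make smaller. An adjustment without them was not made, so no difference between probes is called here. The coding stretches of these genes are close copies of each other and the probe letters were not used here, so cross-hybridisation between copies was not tested, and each of these genes is uncertain as to which copy was measured.

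**Figure D4:**
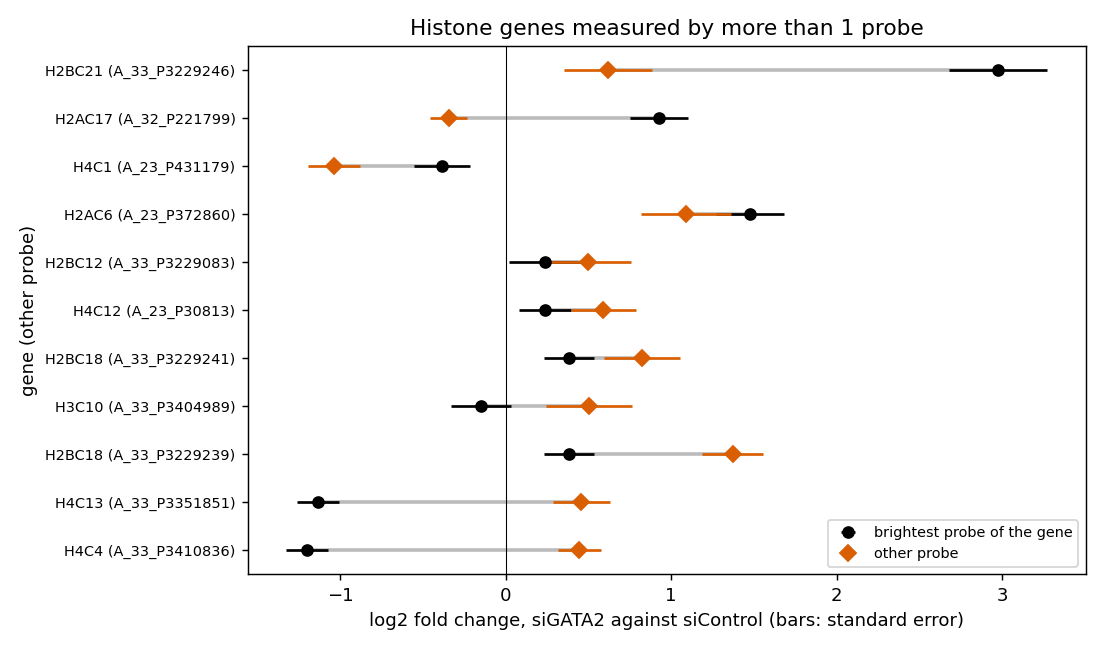
Log2 fold change, siGATA2 against siControl, of the brightest probe (black circles) and of each other probe (orange diamonds) of the 10 histone genes with more than 1 probe, with bars for the standard error. In H4C4, H4C13, H2AC17 and H3C10 the probes lie on opposite sides of 0, for example at -1.20 and 0.44 in H4C4.

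Most genes of DNA replication and most histone chaperone genes were called lower, against 14.2% of all genes. Higher calls were made for 12.3% of all genes. Of 38 genes of DNA replication, among them the MCM helicase subunits and the clamp PCNA, 37 were called lower and 0 higher by limma (0 higher also at an unadjusted p under 0.05 and by the methods' t-test, which called 36 lower), with a median log2 fold change of -1.72. The remaining gene, RRM2, a subunit of ribonucleotide reductase, had a log2 fold change of -0.57 (limma adjusted p = 0.287). PCNA read 12.58, 12.57, 12.70 and 12.68 against 14.19, 14.61, 14.68 and 14.57. Of 21 tested histone chaperone genes 13 were lower and 2 (9.52%) higher, with a median of -1.05. ASF1B, which hands H3 and H4 to newly made DNA, fell by 3.36 (SE 0.186, limma adjusted p = 2.27e-05), from 11.27, 11.87, 12.09 and 12.02 to 8.51, 8.38, 8.45 and 8.48. HJURP, the chaperone of the centromeric H3 variant, fell by 2.43 on the log2 scale, and NAP1L1, an H2A and H2B chaperone, fell by 2.14. ATRX and CDAN1 were called higher, at 0.66 and 0.47, but had log2 fold changes of -0.03 and -0.09 with spike-in scaling.

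Fewer calls were made among genes that make and process histone transcripts. Of 21 genes of histone mRNA production 7 were called lower and 0 higher by limma (0 higher also at an unadjusted p under 0.05 and by the methods' t-test), with a median of -0.26, against 14.2% lower among all genes. The 7 lower calls were 2 with spike-in scaling or the slide row as a block and 13 with array weights, settings in which 6.59%, 10.4% and 26.1% of all genes were called lower. SLBP, the stem-loop binding protein, read 13.39, 13.46, 13.87 and 13.79 against 13.91, 14.37, 14.27 and 14.28, a log2 fold change of -0.58 (SE 0.160, limma adjusted p = 0.0308). ERI1, a 3' exonuclease acting on histone mRNA, and ZNF473, a component of its processing complex, had log2 fold changes of -1.36 and -1.34 and were called lower. NPAT, the coactivator of histone transcription, was not called (log2 fold change -0.24, standard error 0.240, adjusted p = 0.493 from limma).

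The histone genes listed as replication-independent, which lie outside the clusters and are in large part polyadenylated, also split. Whether each of them is independent of replication in these cells was not tested. Of 10 tested, 4 were lower (H2AX, CENPA, H2AZ1 and H1-10) and 3 higher (H3-3B, MACROH2A1 and H3-3A), with a median of -0.19, against 14.2% lower and 12.3% higher among all genes. H2AX, the variant phosphorylated at DNA breaks, fell by 2.11 (SE 0.114, limma adjusted p = 2.14e-05), from 15.12, 15.02, 14.83 and 14.95 to 13.04, 12.86, 12.73 and 12.86. CENPA, the centromeric H3 variant, fell by 2.00. H3-3B, which encodes the H3.3 used outside S phase, read 15.77, 15.84, 16.63 and 16.60 against 15.04, 15.52, 15.54 and 15.58, a log2 fold change of 0.79 (limma adjusted p = 0.0485) that was 0.04 with spike-in scaling. MACROH2A1 stood at 0.47, and at -0.35 with spike-in scaling.

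**Figure D5:**
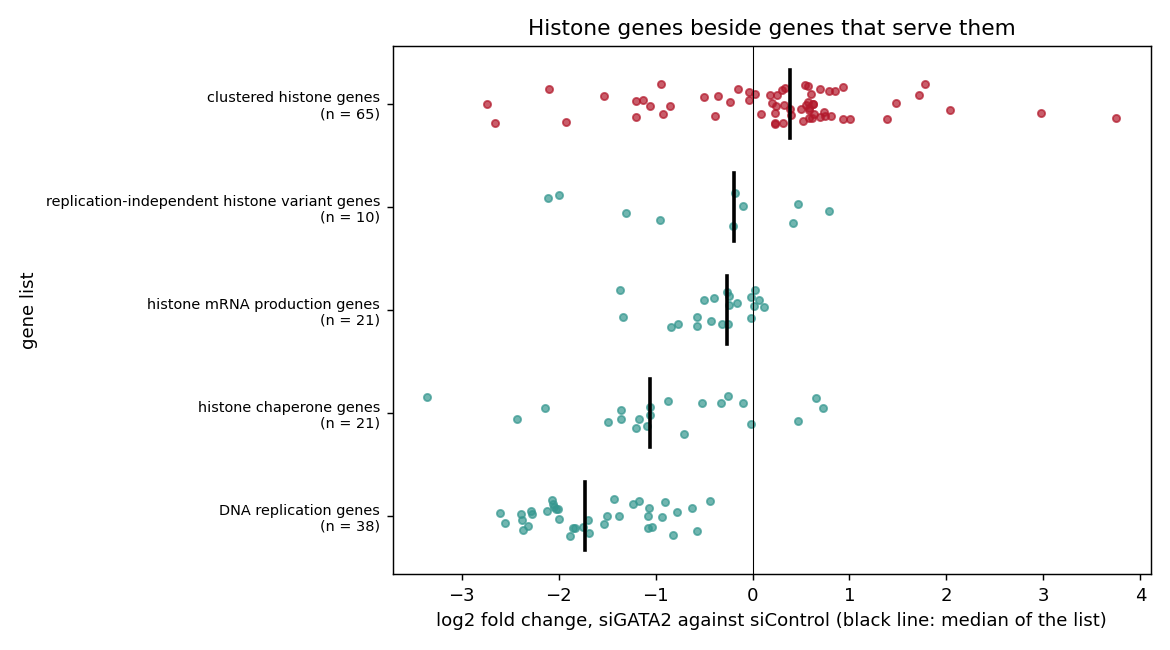
Log2 fold change, siGATA2 against siControl, of each tested gene of the clustered histone set (red) and of 4 lists of related genes (green), with a black line at the median of each list. The medians are 0.38 for the clustered histone genes, -0.19 for replication-independent histone variants, -0.26 for histone mRNA production, -1.05 for histone chaperones and -1.72 for DNA replication.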

How the data were processed

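The authors deposited, per the file headers, the intensity of each spot on a linear scale as Agilent Feature Extraction 11.0.1.1 wrote it, and a matrix on the log2 scale. From the scanner output the processed signal (background-corrected), median signal, local background and flags were taken. Columns of the log2 matrix followed the processed signal of their own array (correlation across probes of at least 0.985), with a median of 7.47 in each column. Their direction was that of the scanner values, and no column was left out. Per the methods, signals were quantile-normalized in GeneSpring. The design number in the file headers differs from that in the methods.

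Outlier spots were left out, the log2 signals of a probe's spots averaged, and the 8 arrays quantile-normalized with limma 3.58.1 (R 4.3.3). Probes were named by accession through RefSeq (26364 of 27902 RefSeq-like accessions matched a symbol). Unannotated probes and those with a mean log2 signal under 3 were removed, the brightest probe stood for a gene, and groups were compared with lmFit, eBayes and Benjamini-Hochberg adjustment over 28850 genes, in place of the methods' t-test. Log2 fold changes are siGATA2 over siControl, from group means of log2 signal. Single differences were tested with SciPy 1.17.1. The test was checked on simulated data.

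The members and the gene lists were chosen with earlier results of these data known. The rule named GATA2, all H1 genes, in each other class the 3 largest falls and 2 largest rises among probes well above background on every array of a group, SLBP, NPAT and the 2 largest called falls and rises of the variant, mRNA production and chaperone lists. Other genes were named after their values were seen. A gene of the variant list is not reported here. Alternatives were other scalings, background corrections, filters, probe rules, tests, weights, blocks and arrays left out. With a single slide, no slide block could be fitted. Replicate numbers did not pair the samples, as the correlations of same-numbered deviations were 0.54, -0.31, 0.17 and 0.22. Arrays have no read depth, and precision is limited by 4 arrays per group.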

Additional observations from a re-analysis of the deposited data

Results flagged for a closer look

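In 86 sets of 4 arrays, 1 array's gap to the nearest other, as a share of the range of the 4, exceeded Dixon's critical value 7 times. Chance gives about 1 in 20. H1-1 was low on siControl array 3 (2.06 against 4.34 to 4.41, share 0.968). H1-2 was high on siControl array 2 (15.14, with the next at 14.9998, share 0.916). The other 5 lay on siControl array 1, which also had the low E1A signal. There CENPA read 10.27 against 10.83 to 10.87 (share 0.931), H3-3B 15.04 against 15.52 to 15.58 (share 0.900), MACROH2A1 15.94 against 16.28 to 16.32 (share 0.906), ATRX 13.47 against 13.24 to 13.26 (share 0.919) and the median deviation of the H2B genes -0.32 against 0.09 to 0.14 (share 0.891).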

How the results depend on the processing

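The lower calls held best over the settings, though their share (18.5%) lay near that of all genes (14.2%). The methods' t-test called 9 genes lower and 8 higher at the threshold of the methods, an adjusted p under 0.05 with at least a 2-fold difference. Of all 28850 genes it called 1942 lower and 1111 higher there. With no fold threshold it called 12 and 17 after Benjamini-Hochberg adjustment, against 13.6% and 11.8% of all genes. Unadjusted it called 13 and 27, and the shares of all genes were not computed. All 12 stayed called in 24 of 25 settings and 10 of them with spike-in scaling, while the number called lower ran from 10 to 15. No histone gene was called in the opposite direction in any of the 25, which did not test the other probes of a gene alone. The other probe of H4C4 was called higher (0.44, limma adjusted p = 0.0379 over all probes). Those of H4C13 and H2AC17 also lay opposite to the call, at 0.46 and -0.34, and were not called. Averaging the probes of each gene kept H4C4 and H4C13 called lower, but at -0.38 and -0.34. At least 2-fold lower were then 7 histone genes and higher 8, against 1987 and 1297 of 28850 genes. The 19 higher calls became 2 with spike-in scaling, 12 without siControl arrays 1 and 3, 30 with the title letter as a random block and 36 without siGATA2 arrays 1 and 2 (an alternative chosen after seeing the data, as was leaving out siGATA2 arrays 3 and 4), and 13 to 23 leaving out 1 array at a time. Of all genes 0.489% were called higher with spike-in scaling and 9.49% without siControl arrays 1 and 3. The share was 18.5% with the title letter block, 13.8% without siGATA2 arrays 1 and 2 and 8.91% to 13.7% leaving out 1 array at a time. At least 2-fold higher were 2 histone genes with spike-in scaling and 17 without siGATA2 arrays 1 and 2, against 141 of 28820 and 1496 of 28902 genes. The median was -0.23 and 0.73 in these settings, against -0.43 and 0.09 for all genes. With the replicate number as a block 12 genes were called lower and 19 higher, 17 of the 19 being the same, against 12.9% and 11.7% of all genes. Same-numbered samples share only a number.

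Lower calls among histone mRNA production genes were 4 with scaling to the 75th percentile, 2 with spike-in scaling, 13 with array weights, 2 with the slide row as a block and 3 to 9 leaving out 1 array at a time, and among histone variants 7 with array weights. Of all genes 13.2%, 6.59%, 26.1%, 10.4% and 11.2% to 15.3% were called lower in these settings, in that order. GATA2 passed the test with array weights (1.102, limma adjusted p = 0.00194) and without siGATA2 arrays 3 and 4 (1.21, limma adjusted p = 0.00777). Of the 19 genes called higher, 7 turned sign with spike-in scaling, namely H1-3, H1-2, H2AC12 (-0.0956), H2BC9 (-0.0895), H2BC17 (-0.0630), H4C15 (-0.112) and H2BC13 (-0.152), and none of the 12 called lower did. Among the genes that the rule names, signs turned with spike-in scaling in H1-4 (-0.63), H1-3 (-0.0747), H1-1 (-0.13), H1-2 (-0.0097), H3C3 (-0.0692), H3C11 (-0.0299), MACROH2A1 (-0.35), ATRX (-0.0311) and CDAN1 (-0.094). H1-4 also turned with the 75th percentile (-0.0215), array weights (-0.19), without siControl arrays 1 and 3 (-0.0093), without siGATA2 arrays 3 and 4 (-0.25) and leaving out 1 array (-0.085 to 0.13). H3C10 was 0.18 as the mean over its probes and 0.14 without siGATA2 arrays 1 and 2. The E1A signal behind the spike-in scaling was low on siControl array 1 (11.13 on the log2 scale, against 13.45 to 13.83 elsewhere). Its part in the sign changes with spike-in scaling was not tested, nor were other causes. Dim probes (H1-1, H1-6, H4C7, H4C16 and H2AC2P, not well above background on every array) limit those values.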
